A study of Homo sapiens with 12 samples.

Results

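The genes described here are 8 catenin and cadherin genes in 3 human B cell leukaemia lines: CTNND1 (p120 catenin), CTNNB1 (β-catenin), CTNNA1 (α-catenin), JUP (plakoglobin), ARVCF, CTNNBL1, CDH1 (E-cadherin) and CDH2 (N-cadherin). The set was selected on earlier readings of the same counts, which showed its levels to differ between lines, and its rows were taken by symbol from the 57820 genes of the count table, together with the splice junctions that could be placed in them, 59 of 170723. All 8 passed the filter on low counts, as did 21270 genes in all. The lines were JVM3, HG3 and MEC1, labelled as chronic lymphocytic leukaemia, each with wild-type U1 small nuclear RNA or with the U1 g.3A>C mutation, an A-to-C change at position 3. U1 pairs with the 5' splice site at the start of an intron. The sources used here do not say how the mutation was put into the cells or whether each mutant line was 1 clone. Each of the 6 groups held 2 technical replicates, 12 libraries in all, so a p-value from 1 line reflects technical variation alone, and across lines the line was the unit (n = 3).

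Classical cadherins are transmembrane proteins that join neighbouring cells through calcium-dependent binding of their outer domains. Inside the cell, β-catenin or plakoglobin binds the cadherin tail and α-catenin links it to actin, while p120 catenin and its relative ARVCF bind nearer the membrane and control how long the cadherin stays there. β-catenin that is not bound to cadherins is also the transcriptional effector of Wnt signalling. CTNNBL1 carries a catenin-like name but is a nuclear protein that associates with the spliceosome. B cells grow in suspension or loose clusters and are not known for cadherin junctions.

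Libraries held 29880079 to 39716818 counts assigned to genes, and levels are given as CPM, counts scaled to library size with TMM factors. The 8 B cell markers summed to 1746 to 2249 CPM in every library, with 7 or 8 over 1 CPM in each group. The 6 plasma cell markers summed to 1316 to 2095 CPM, the 8 epithelial markers to 1.58 to 33.7, the 7 fibroblast markers to 2.11 to 7.92 and the 7 myeloid markers to 2.30 to 17.2. The T cell and the endothelial markers each summed to at most 0.863 CPM in any library. RNU1-1, a U1 gene, read 43.0, 29.5 and 12.1 CPM in wild-type JVM3, HG3 and MEC1 and 58.8, 206 and 22.5 in the mutants, and gene counts do not separate mutant from wild-type U1 sequence. In bulk RNA, fewer cells with a transcript and less transcript per cell cannot be told apart.

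The splice variants that the junction results turn on are shown first, so that each share can be read against its letters. Letters are from transcripts of GENCODE release 29, and positions are those of the junction file, in hg19, for introns of the same lengths. In CTNND1 a coding exon of 63 bases, or 21 codons, lies at chr11:57581783-57581845 on the plus strand. It can be included or skipped, and it is in capitals between the flanking exons:
CTNND1 alternative exon: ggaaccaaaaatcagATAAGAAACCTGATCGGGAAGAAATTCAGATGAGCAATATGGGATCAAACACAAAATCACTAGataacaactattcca
Downstream, at chr11:57583769-57583772, 2 annotated acceptors of CTNND1 differ by 3 bases, or 1 codon, which are in capitals:
CTNND1 acceptor pair: caacacccttgatgCAGaagatttagcac
In CTNNB1 the coding exon that starts at chr3:41275020 on the plus strand was joined in some reads from the file at 41275024 instead, a junction that is not in that release. The 4 bases left out of those reads are in capitals, and 4 is not a multiple of 3:
CTNNB1 exon join: ctgcaactaaacagGAAGggatggaaggtc

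The lines differed in which catenins they carried, and these levels are a description with no test, since the genes were put forward for them. CTNND1, whose protein steadies cadherins at the membrane, was abundant in JVM3 and HG3 and low in MEC1. Wild-type JVM3 libraries read 152 and 146 CPM and mutant libraries 143 and 137. Wild-type HG3 libraries read 173 and 167 CPM and mutant libraries 180 and 185. Wild-type MEC1 libraries read 8.58 and 9.39 CPM and mutant libraries 29.1 and 28.4. Every MEC1 library was therefore below every library of the other lines, and the HG3 to MEC1 ratio was 18.9 with wild-type U1 and 6.36 with mutant U1. With wild-type U1, HG3 exceeded JVM3 at a ratio of 1.14, with replicates that did not overlap.

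JUP, which can stand in for β-catenin at cadherins and also serves desmosomes, was high in JVM3 alone. JVM3 read 68.2 and 66.6 CPM with wild-type U1 and 78.5 in both mutant libraries. In HG3 the values were 3.53 and 2.85 CPM against 2.81 and 2.22. MEC1 read 2.78 and 2.05 CPM against 2.08 and 1.48. The JVM3 libraries stood apart from all others, 21.1 times HG3 and 27.9 times MEC1 with wild-type U1. Epithelial markers, whose cells are rich in plakoglobin, were also highest in JVM3, at 32.7 to 33.7 CPM in sum against 2.62 to 9.68 in HG3 and 1.58 to 2.27 in MEC1. The keratin KRT5 made up most of that sum, with 28.4 CPM in wild-type JVM3, 2.39 in HG3 and 0.0562 in MEC1, whereas EPCAM was highest in MEC1 at 1.15. EPCAM and CLDN7 were at 0 in wild-type JVM3 and joined there by CLDN3 in the mutant, and the part of epithelial-type expression in the JUP level was not tested.

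CTNNB1 and CTNNA1, the core of the cadherin-actin link, were well expressed in all 3 lines and varied less. CTNNB1 was highest in JVM3, at 444 ± 2.06 CPM, then 320 ± 3.76 in MEC1 and 268 ± 1.14 in HG3 (SD, n = 2, wild-type U1). CTNNA1 ran from 258 ± 0.233 CPM in JVM3 through 143 ± 5.04 in HG3 to 92.9 ± 3.63 in MEC1 (SD, n = 2). No neighbouring lines overlapped in either gene, and the highest line exceeded the lowest 1.66 times for CTNNB1 and 2.78 times for CTNNA1. CTNNBL1 was the most even member, with 51.7 ± 0.519 CPM in HG3, 45.2 ± 0.369 in JVM3 and 39.4 ± 1.55 in MEC1 (SD, n = 2), a range of 1.31 times.

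ARVCF and the cadherins were scarce. ARVCF stood at 4.79 ± 0.560 CPM in JVM3 and 4.68 ± 0.261 in HG3, which overlapped, and at 1.54 ± 0.0375 in MEC1 (SD, n = 2, wild-type U1). CDH1 was highest in MEC1, the line with least CTNND1, at 13.3 ± 0.878 CPM, followed by JVM3 at 10.7 ± 0.975 and HG3 at 4.29 ± 0.629 (SD, n = 2). CDH2 gave only 16 and 17 counts in wild-type and mutant JVM3, 19 and 9 in HG3, and 1 and 1 in MEC1, both replicates summed. In both MEC1 groups that is under the 3 counts that a count of 0 would allow, so no fold of CDH2 is read as a result. Of the other 7 genes, CTNND1 and JUP had a wild-type range of at least 4 times, as did 30.9% of all tested genes.

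**Figure D1:**
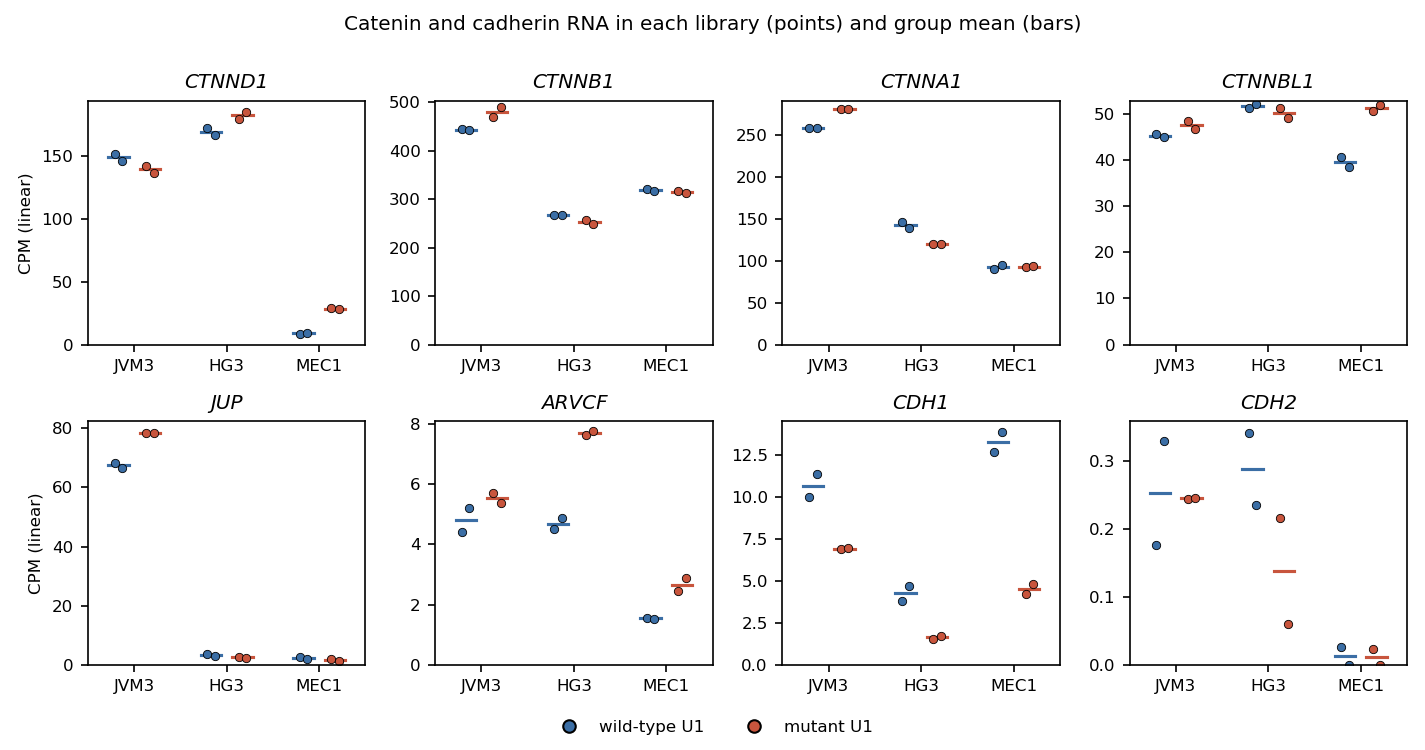
CPM on a linear axis from 0 for each of the 8 genes, with 1 panel per gene, 2 points per group for the technical replicates and a bar for their mean. CTNND1 is at 8.98 CPM in wild-type and 28.7 in mutant MEC1 but over 136 in every JVM3 and HG3 library, JUP is high in JVM3 only, and CDH1 is lower with mutant U1 in each line.

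Set against gene length (CPM per kilobase of annotated exon), the make-up of the catenin set differed between lines. With wild-type U1, JVM3 carried 37.2 for CTNNB1, 29.3 for CTNNA1, 16.96 for CTNND1, 13.6 for JUP and 10.9 for CTNNBL1. By this measure HG3 had nearly as much CTNND1 (19.3) as CTNNB1 (22.5), and more than CTNNA1 (16.2). The length is the union of all annotated exons, which can exceed that of the transcripts present, so orders between genes depend on it. Junction reads, which need no length, gave another order in wild-type HG3. There the deepest junction had 865 reads in CTNNB1, 456 in CTNNA1 and 349 in CTNND1. In MEC1, CTNNB1 stood at 26.8 and CTNNA1 at 10.5, while CTNND1 reached only 1.02, less than CDH1 at 2.15. With mutant U1 that last order was the other way round, with 3.26 for CTNND1 and 0.736 for CDH1 per kilobase in MEC1. In wild-type HG3, ARVCF stood at 0.833 ± 0.0465, CDH1 at 0.694 ± 0.102 and JUP at 0.646 ± 0.0968 per kilobase (SD, n = 2), and each overlapped the next in this order within their SDs, while ARVCF and JUP did not overlap.

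The next question, from the design of the series, was what the U1 mutation changed across the lines. CDH1 fell in all 3 and was the 1 member of 8 that passed the test, where 3.69% of all genes passed (1.83% rose and 1.86% fell). In JVM3, CDH1 read 9.99 and 11.4 CPM in wild-type and 6.91 and 6.97 in mutant libraries. In HG3 the values were 3.84 and 4.73 CPM against 1.57 and 1.74. In MEC1 they were 12.7 and 13.9 CPM against 4.25 and 4.84. No mutant library overlapped a wild-type library of its line. The log2 fold change across lines was -1.16 (SE 0.28 over 3 lines, adjusted p = 0.0192 by edgeR's quasi-likelihood test), and 0.197% of the genes tested were called with a fall of at least 1 on this scale. The call held without JVM3 (log2 fold change -1.47, adjusted p = 0.0223 by edgeR) and was lost without HG3 (-1.09, adjusted p = 0.0501) or MEC1 (-0.94, adjusted p = 0.066).

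The other 7 members did not pass across lines. ARVCF was higher with mutant U1 in all 3 lines, by 0.56 on the log2 scale (SE 0.19, adjusted p = 0.109, edgeR). CTNND1 gave 0.52 on the same scale with an SE of 0.56, wider than the value itself (adjusted p = 0.425, edgeR). CTNNB1, at 0.01 (SE 0.05), CTNNA1, at -0.04 (SE 0.10), CTNNBL1, at 0.14 (SE 0.12), and JUP, at -0.12 (SE 0.20), lay near 0 on the log2 scale.

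Within lines, on the spread of technical replicates, 13 of the 24 gene and line pairs passed, where 22.4% of genes passed in JVM3, 38.3% in HG3 and 36.6% in MEC1. In JVM3, 3 members rose, as did 10.4% of genes, and 1 fell (12% of genes). In HG3, 2 rose (18.7% of genes) and 2 fell (19.6%). In MEC1, 3 rose (18% of genes) and 2 fell (18.6%). CDH1 was the 1 member that passed in every line, always lower with mutant U1, as did 4.65% of all genes; none rose in every line, as 4.34% of genes did. Its log2 fold changes were -0.63 in JVM3, -1.34 in HG3 and -1.56 in MEC1 (SE 0.11, 0.16 and 0.11; largest adjusted p = 2.74e-05 by edgeR). Of the 6 plasma cell markers, which mark late B cell differentiation, 4 fell and 2 rose in JVM3. In HG3 4 fell and 0 rose, and in MEC1 5 fell and 1 rose. Their median log2 fold changes were -0.35, -0.37 and -0.36 in JVM3, HG3 and MEC1. JCHAIN and TNFRSF17 fell in every line and across lines (-0.75 and -0.41, adjusted p = 0.0056 and 0.0436 by edgeR). The summed level of the list was 2073 to 2095 CPM in wild-type and 1805 to 1819 in mutant HG3, and 1893 to 1941 and 1371 to 1377 in MEC1. In JVM3 it was 1316 to 1341 and 1465 to 1501 CPM, where IRF4 alone went from 993 to 1198. Of 8 B cell markers 5 fell in each line, while 2 rose in JVM3 and MEC1 (PAX5 and CD79A) and 1 in HG3 (MS4A1). The part of either list in the CDH1 result was not tested.

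CTNND1 rose 3.20-fold in MEC1, the line where it was low. The log2 fold change there was 1.68 (SE 0.06, adjusted p = 9.59e-25 by edgeR), and 1.7% of genes were called with a rise of at least 1.5. In HG3 it rose by 0.13 (SE 0.04, adjusted p = 0.00705 by edgeR), and in JVM3 its value was -0.10 (SE 0.04, adjusted p = 0.0854). Mutant MEC1 thus remained well below the other lines, at 28.7 ± 0.501 CPM against 140 ± 4.16 in JVM3 and 183 ± 3.69 in HG3 (SD, n = 2). The annotated readthrough gene TMX2-CTNND1 overlaps CTNND1 on the same strand, and how the counting divided shared reads is unknown. Junction reads, which do not rest on that division, went the same way: 65 reads over 10 CTNND1 junctions in wild-type MEC1 and 291 in mutant MEC1, 4.25 times as many relative to all junction reads of the column. The same ratio was 0.935 in JVM3 and 1.09 in HG3. A junction read does not tell CTNND1 from the readthrough gene where both have that junction.

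ARVCF, the closest relative of p120 catenin among the members, rose in HG3 and MEC1. HG3 read 4.50 and 4.87 CPM with wild-type U1 and 7.62 and 7.76 with mutant U1. MEC1 read 1.57 and 1.51 CPM against 2.44 and 2.87. JVM3 read 4.40 and 5.19 CPM against 5.68 and 5.36, groups that did not overlap but did not pass (log2 fold change 0.20, adjusted p = 0.33 by edgeR). In HG3 and MEC1 the log2 fold changes were 0.74 (SE 0.13) and 0.77 (SE 0.18), with adjusted p of 5.09e-06 and 0.000387 by edgeR. Whether the counting used strand is not stated, so reads from the other strand at these genes cannot be told apart.

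The remaining catenins changed little. CTNNBL1 rose in MEC1, from 40.5 and 38.3 to 50.5 and 51.8 CPM (log2 fold change 0.37, SE 0.05, adjusted p = 7.39e-08 by edgeR). CTNNA1 fell in HG3, from 147 and 139 to 120 and 120 CPM (log2 fold change -0.23, SE 0.04, adjusted p = 4.71e-06 by edgeR). It rose in JVM3, from 259 and 258 to 281 and 281 CPM (0.12, adjusted p = 0.0154 by edgeR), and overlapped in MEC1, at 90.3 and 95.5 against 92.5 and 93.7. CTNNB1 rose in JVM3, from 445 and 442 to 469 and 491 CPM (log2 fold change 0.11, adjusted p = 0.0118 by edgeR), and gave -0.06 in HG3 and -0.02 in MEC1. JUP rose in JVM3 by 0.22 (adjusted p = 0.00571 by edgeR), fell by 0.44 in MEC1 (adjusted p = 0.0456), where replicates overlapped, and gave -0.33 in HG3 (adjusted p = 0.102). Single libraries moved these JUP values: in MEC1 it gave -0.18 without wild-type replicate 1 (adjusted p = 0.623 by edgeR), -0.23 without mutant replicate 2 (adjusted p = 0.419) and -0.73 without mutant replicate 1 (adjusted p = 0.00747). In HG3 it passed without wild-type replicate 2 (-0.46, adjusted p = 0.042 by edgeR) or mutant replicate 1 (-0.52, adjusted p = 0.0413). Several of these small calls needed all libraries: the CTNNB1, CTNNA1 and JUP calls in JVM3 were lost in 3, 4 and 3 of 17 alternatives, that of CTNND1 in HG3 in 3, and that of JUP in MEC1 in 9. With either JVM3 mutant replicate or either wild-type replicate left out, adjusted p by edgeR ran up to 0.266 for CTNNB1, 0.119 for CTNNA1 and 0.0962 for JUP in that line.

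**Figure D2:**
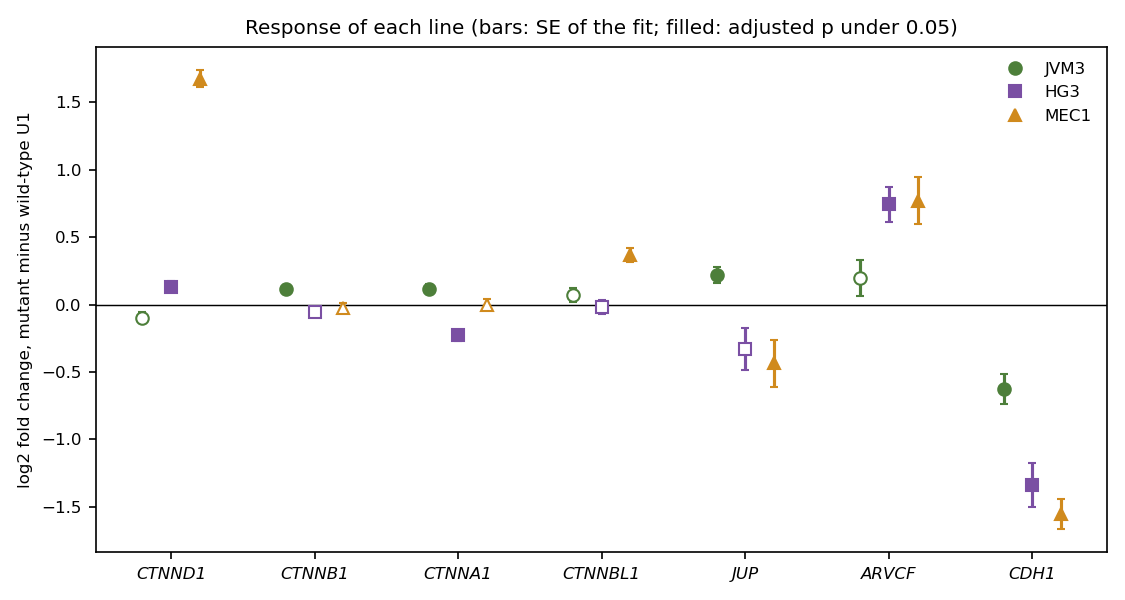
Log2 fold change of mutant against wild-type U1 in JVM3, HG3 and MEC1 for the 7 members with more than a few counts, with bars for the SE of the fit and filled points for an adjusted p under 0.05. CDH1 lies below 0 in all 3 lines, CTNND1 in MEC1 stands at 1.68 and its other lines near 0, and ARVCF lies above 0 in each line.

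The responses themselves were then compared between lines. They differed for 7 of the 8 members, all but CDH2, where 32% of all genes differed (edgeR's F-test of the 2 differences between lines). By pairs of lines, 6 members differed between HG3 and JVM3 (19.4% of genes), 5 between MEC1 and JVM3 (18.4%) and 3 between MEC1 and HG3 (21.8%). CTNND1 responded more in MEC1 than in JVM3 by 1.77 and than in HG3 by 1.55 on the log2 scale (adjusted p = 1.33e-21 and 1.71e-20 by edgeR). CDH1 fell further in HG3 than in JVM3 (difference -0.71, adjusted p = 0.00822 by edgeR) and further in MEC1 than in JVM3 (-0.93, adjusted p = 2e-05). HG3 and MEC1 did not differ past the threshold for CDH1 (-0.22, adjusted p = 0.548 by edgeR). ARVCF responded more in HG3 than in JVM3 by 0.55 (adjusted p = 0.0296 by edgeR), and its MEC1 to JVM3 difference of 0.57 did not pass (adjusted p = 0.0639). CTNNBL1 responded more in MEC1 than in either other line, by 0.30 against JVM3 and 0.39 against HG3 (adjusted p = 0.00183 and 3.91e-05 by edgeR).

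Splice junctions within the genes came next, since a U1 mutation can shift the choice of splice sites. The junction table has 1 column per line and U1 status, so values within a line have no replicates and carry 95% Wilson intervals, which cover counting error only. Junctions were placed in 5 of the 8 genes: 10 in CTNND1, 14 in CTNNB1, 16 in CTNNA1, 13 in CTNNBL1 and 6 in ARVCF. None was placed in JUP, CDH1 or CDH2, so the fall of CDH1 could not be followed at its junctions. At acceptors with at least 2 junctions of at least 20 reads, 4 junctions in CTNND1 and CTNNB1 could be tested. None of them was called, and by edgeR's diffSpliceDGE 0 had an unadjusted p under 0.05, where 2.78% of all tested junctions were called. limma on the same 4 junctions called 0. The 2 junctions around the CTNND1 exon above both had an unadjusted p of 0.0364 by limma. They share 1 acceptor and their log ratios mirror each other, so this is 1 result and not 2. No junction in the 5 genes changed by 10 points or more of acceptor reads with the same sign in every line among those tested.

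Skipping of the 63-base CTNND1 exon was rare, and its difference between mutant and wild-type U1 did not pass the test. The skipping junction, chr11:57578958-57582866, took 2 of 305 acceptor reads in wild-type JVM3, or 0.656% (0.180 to 2.36), and 8 of 331 in mutant JVM3, or 2.42% (1.23 to 4.70). In HG3 it took 5 of 354, or 1.41% (0.605 to 3.26), and 7 of 363, or 1.93% (0.937 to 3.93). In MEC1 it took 0 of 17, which allows a share of up to 17.6%, and 5 of 70, or 7.14% (3.09 to 15.7). The exon was therefore included in nearly all CTNND1 transcripts of JVM3 and HG3 with either U1, and the wild-type MEC1 column was too shallow to show a direction in that line. The mean change was 3.14 points with MEC1 (adjusted p = 1 by diffSpliceDGE of edgeR) and 1.14 points without it (adjusted p = 0.968). The intervals of mutant and wild-type columns overlapped in each line. The CTNND1 acceptor that leaves out the 3 capital bases, 57583772, took 9.60% and 12.4% of donor reads in wild-type and mutant JVM3 and 7.26% and 8.77% in HG3. In MEC1 it took 1 of 5 and 4 of 38 reads, too few to set a share.

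**Figure D3:**
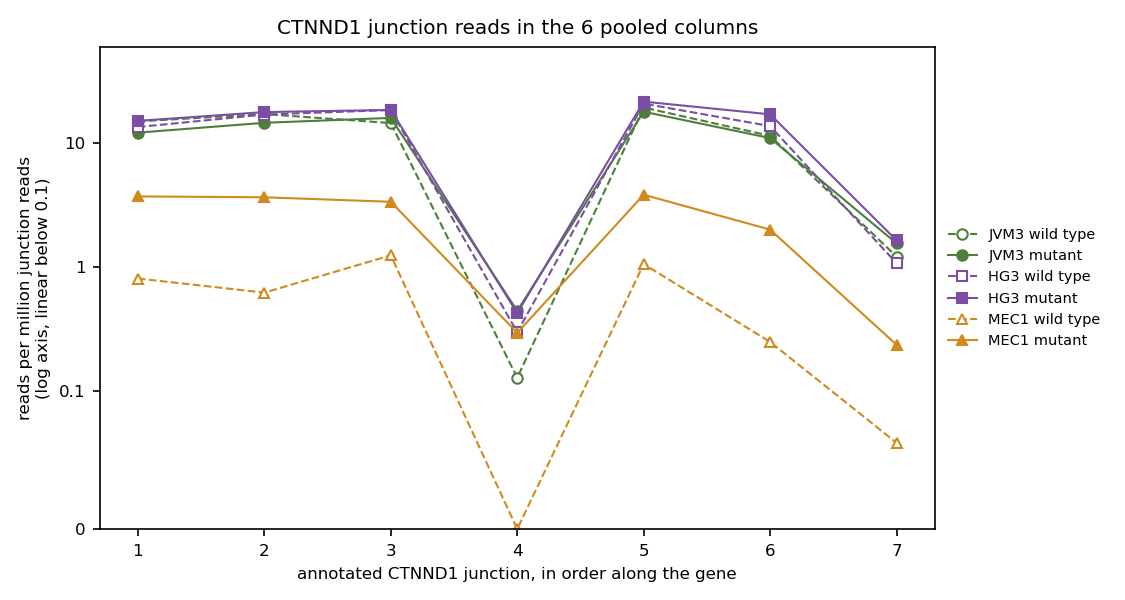
Junction reads, scaled to the total of the column, at the 7 annotated CTNND1 junctions, in order along the gene, in the 6 columns, on a log axis that is linear below 0.1. JVM3 and HG3 run together, mutant MEC1 lies below them at each junction except the rare skipping junction, and wild-type MEC1 is lowest at each.

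In CTNNB1 the junction that drops the 4 capital bases, chr3:41274935-41275024, had 32 reads in wild-type JVM3 and 19 in wild-type MEC1. It had 0 in wild-type HG3 and in all 3 mutant columns. In JVM3 it took 2.61% (1.86 to 3.66) of 1226 donor reads, and in MEC1 1.84% (1.18 to 2.85) of 1035. The counts of 0 allow 0.213% of donor reads in mutant JVM3, 0.294% in mutant MEC1, and 0.401% and 0.417% in wild-type and mutant HG3. By donor its adjusted p was 0.00109 by edgeR's diffSpliceDGE, but the mean change of -1.48 points was under the 5 points required and HG3 showed none, so it was not a call, and 0 of 12 junctions were called by donor against 1.8% of all. It was the deepest junction of the 5 genes that is not in the annotation release. The corresponding junctions of CTNNBL1, CTNNA1, CTNND1 and ARVCF had 13, 7, 7 and 5 reads over all columns.

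Downstream of the CTNNB1 coding part, the donor at chr3:41280845 was joined to 3 main acceptors in all columns. The acceptor at 41281310 took 41.0% (37.8 to 44.3) and 40.5% (37.6 to 43.5) of donor reads in wild-type and mutant JVM3. It took 41.2% (36.9 to 45.6) and 43.4% (39.0 to 47.8) in HG3. MEC1 used it more, with 52.9% (49.2 to 56.5) and 53.8% (50.2 to 57.4), intervals that did not overlap those of the other lines. The acceptor at 41281151 made up most of the rest, with 55.9% and 55.6% in JVM3, 53.0% and 51.0% in HG3, and 41.9% and 43.5% in MEC1. The third acceptor, 41281313, 3 bases further on, took 5.204% (3.799 to 7.091) in wild-type and 2.04% (1.24 to 3.34) in mutant MEC1, intervals that did not overlap. In JVM3 it took 2.31% (1.5 to 3.54) and 3.47% (2.53 to 4.75), and in HG3 5.80% (4.04 to 8.25) and 4.75% (3.19 to 7.03). Its mean change by donor was -1.02 points, without the same sign in every line (adjusted p = 1 by diffSpliceDGE of edgeR). Differences between single columns have no replicates.

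**Figure D4:**
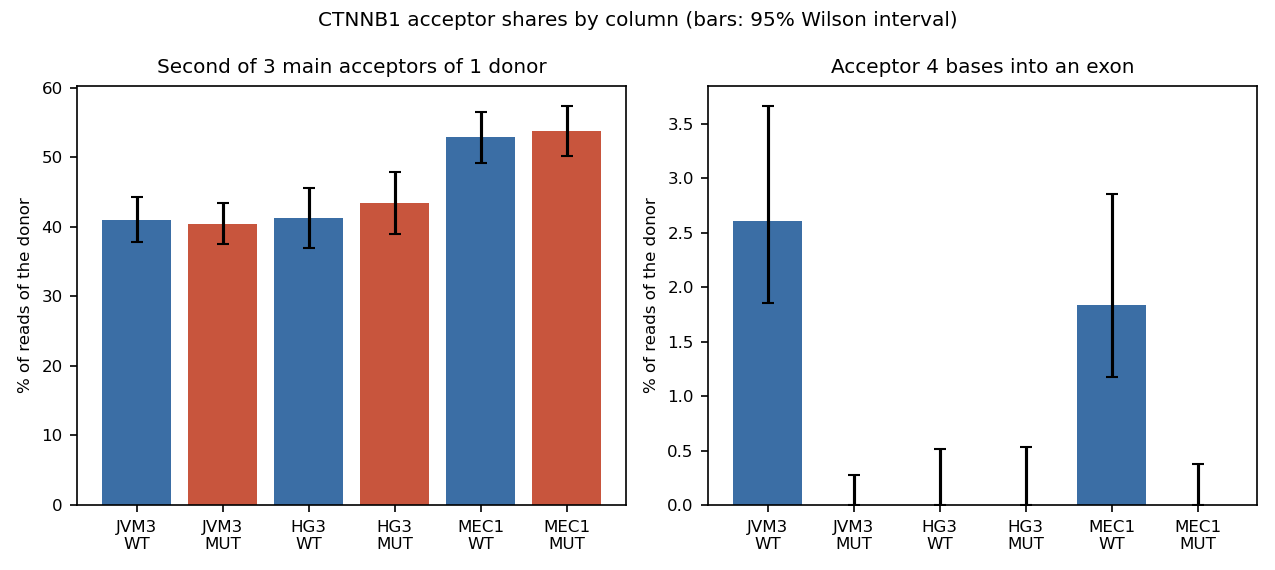
Share of the reads of a CTNNB1 donor, in percent, at single acceptors in each of the 6 columns, with bars for the 95% Wilson interval. The junction outside the annotation is seen only in wild-type JVM3 (2.61%) and wild-type MEC1 (1.84%), and the second of the 3 main acceptors downstream reaches 52.9% and 53.8% in MEC1 and at most 43.4% in the other columns.

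Genes that work with these catenins and cadherins were followed in 15 lists of 225 genes, of which 179 were tested. Of these, 2 rose and 1 fell across lines, or 1.68%, against 3.69% of all genes (1.83% rose and 1.86% fell), with a median log2 fold change of 0.00 beside -0.01 over all genes tested. In 12 of the 15 lists no gene passed. Among the other 8 tested classical and type II cadherins, 0 passed; the most abundant, CDH8 and CDH11, stood at 11.8 and 11.1 CPM in wild-type HG3 and at 0.0292 and 0.106 in MEC1. Of 6 other catenins and plakophilins 0 passed; CTNNAL1, an α-catenin relative, had 111 CPM in wild-type MEC1, 27.8 in HG3 and 16.3 in JVM3. Within lines it fell in HG3 (log2 fold change -0.98, adjusted p = 1.34e-16 by edgeR) and JVM3 (-0.59, adjusted p = 3.93e-08) and gave 0.03 in MEC1. PKP4, a member of the p120 family, had 84.5 CPM in wild-type MEC1 and 37.0 in JVM3 but 0.0763 in HG3. These relatives differed widely between lines, and some passed within a line, CDH11 and PKP4 in HG3 among them, while none passed across lines. In HG3 PKP4 only went from 0.0763 to 0.352 CPM. It also passed in MEC1, where it went from 84.5 to 92.75 CPM (adjusted p = 0.024 by edgeR).

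Among 13 partners of p120 catenin, PTPRM, a receptor tyrosine phosphatase that binds cadherin complexes, fell across lines (log2 fold change -0.80, adjusted p = 0.0217 by edgeR). It went from 6.50 to 3.70 CPM in JVM3, from 17.5 to 8.87 in HG3 and from 3.79 to 2.52 in MEC1, and it lost the call without JVM3 (adjusted p = 0.0759) or HG3 (0.1). CDC42, the small GTPase with the highest level of that list, did not pass (0.24, adjusted p = 0.126 by edgeR). Of the 10 spliceosomal partners of CTNNBL1 followed here, none passed across lines; PRPF19 and CDC5L, core subunits of the PRP19 complex, gave 0.09 and 0.04.

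Of the 9 tested Wnt ligands, WNT2B rose (log2 fold change 1.52, adjusted p = 0.0173 by edgeR), from 0.660 to 1.55 CPM in JVM3, 0.712 to 2.36 in HG3 and 0.133 to 0.410 in MEC1. Without HG3 its adjusted p was 0.0776. Of the tested genes of the β-catenin destruction complex (17), its nuclear partners (16), Wnt targets (15) and Wnt receptors (18), none passed across lines. Within JVM3, HG3 and MEC1, 5, 9 and 6 genes of the destruction complex rose (10.4%, 18.7% and 18% of all genes). In the same order 3, 5 and 3 of them fell (12%, 19.6% and 18.6% of all genes). Nuclear partners had 2, 6 and 7 that rose and 2, 2 and 4 that fell. Receptors had 1, 3 and 3 that rose and 2, 1 and 3 that fell. Across lines CD44 and MYC, the most abundant targets, gave 0.28 and -0.07 (adjusted p = 0.172 and 0.68 by edgeR). Within lines, 3, 4 and 4 targets rose in JVM3, HG3 and MEC1 (10.4%, 18.7% and 18% of all genes). In the same order 1, 0 and 2 targets fell (12%, 19.6% and 18.6% of all genes). CD44 rose in HG3 (0.56) and MEC1 (0.21), and MYC fell in JVM3 (-0.19) and MEC1 (-0.10). CCND1 rose in each line (0.28, 0.90 and 1.17 in JVM3, HG3 and MEC1), as 4.34% of all genes did. Across lines it gave 0.78 and did not pass (adjusted p = 0.0521 by edgeR). LEF1, the nuclear partner of β-catenin that is typical of this leukaemia, gave -0.01, with 27.2 CPM in JVM3, 3.48 in HG3 and 12.8 in MEC1 (wild-type U1).

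Repressors of CDH1 were read because CDH1 was the member that fell in every line. Of 6 tested, none passed across lines, with a median log2 fold change of 0.20. Within lines, 3 rose in MEC1 (18% of all genes), 1 in HG3 (18.7%) and 0 in JVM3, and 0 fell in any line. ZEB1, a repressor of E-cadherin, rose from 132 to 148 CPM in HG3 and from 58.2 to 67.0 in MEC1 (adjusted p = 7.73e-05 and 0.000229 by edgeR). It went from 156 to 151 CPM in JVM3. SNAI1 rose in MEC1 from 0.425 to 1.18 CPM and ZEB2 from 2.52 to 3.49 (adjusted p = 0.000229 and 0.0144 by edgeR). TCF3, CTBP1 and SNAI3 passed in no line and gave 0.04, 0.03 and 0.32 across lines. The part of these repressors in the CDH1 result was not tested. Of the 9 tested genes of cadherin shedding and turnover 0 passed, with 6 that fell in MEC1, where 18.6% of all genes fell. Of 8 splicing factors known to act on CTNND1, the epithelial regulator ESRP2 rose (log2 fold change 2.70, adjusted p = 0.0363 by edgeR), but stayed at or under 0.532 CPM in every group, and without HG3 its adjusted p was 0.0858. MBNL1 and PTBP1, the most abundant of them, gave -0.08 and -0.07.

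**Figure D5:**
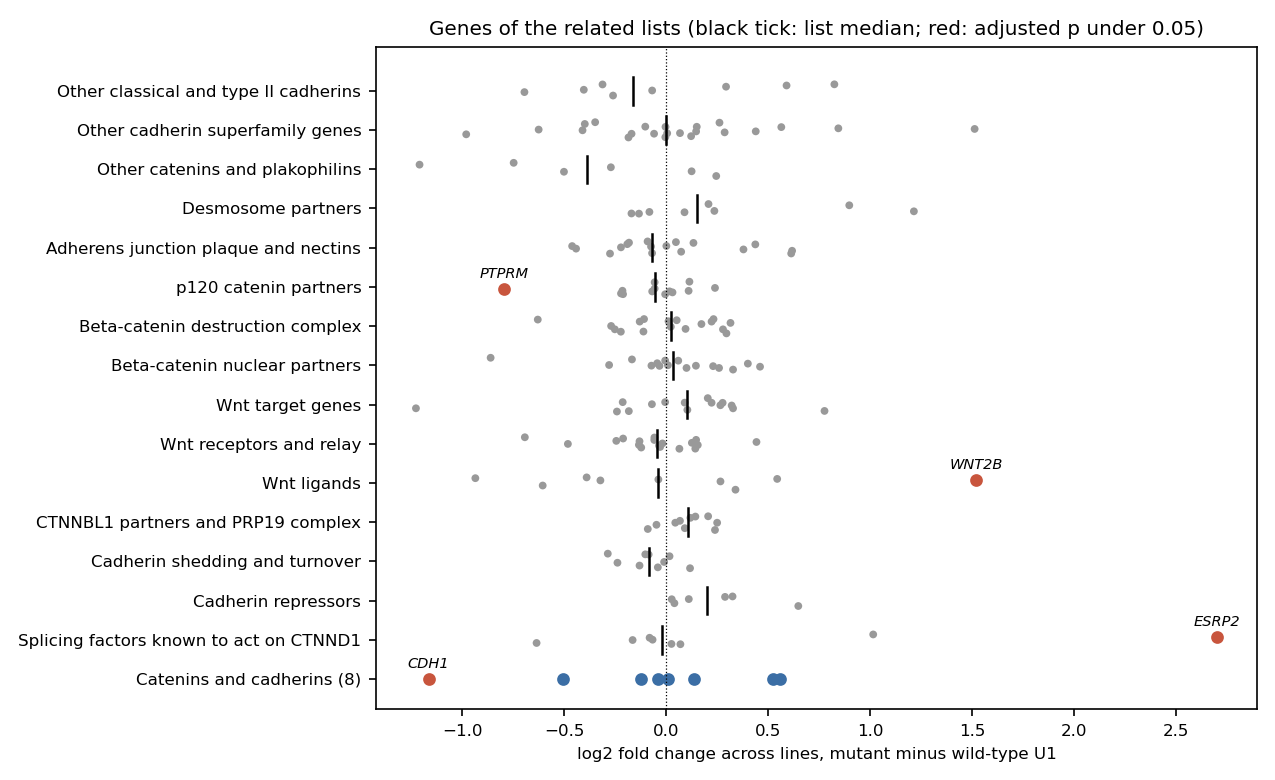
Log2 fold change across lines for each tested gene of the 15 lists and for the 8 members, 1 row per list, with a black tick for the list median and red for an adjusted p under 0.05. Most genes lie around 0, with ESRP2 at 2.70, WNT2B at 1.52, PTPRM at -0.80 and CDH1 at -1.16 in red.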

How the data were processed

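Libraries were stranded total RNA after ribosomal depletion, per the labels' protocols. Both deposited files hold raw read counts as the authors made them: counts per gene in 12 columns, and counts per splice junction in 6 columns, 1 per line and U1 status, taken as pooled replicates. Alignment and counting tools were STAR 2.5.4b and HTSeq 0.9.1 on hg19 (GRCh37), per the submitters' processing notes. Strand setting, annotation release and junction extraction are not stated there. Entries that name no gene were left out; reads outside features were 17.72% to 24.93% of entries and reads not uniquely aligned 29.02% to 34.92%. Junction columns held 15537369 to 17917160 reads.

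Gene counts were fitted with edgeR 4.0.16 in R 4.3.3 (TMM factors, filterByExpr, robust quasi-likelihood F-test), with Benjamini-Hochberg adjustment over all genes tested and a threshold of 0.05. Across lines, technical replicates were summed and the line was a block, and the SE is that of the 3 lines' values. Responses of single lines, and their differences, came from 1 fit of 12 libraries in 6 groups. Replicates of a group differed by more than counting noise (mean chi-square per gene 2.14 to 4.8 at 1 degree of freedom), and nothing says that they came from separate cultures. Lengths are the union of exons in GENCODE release 29. Junctions were placed in a gene where at least 3 exact intron lengths matched that release, and at least 2 times as many as at the next place, so names rest on this match. Positions are those of the exon bases on either side of the intron. Junctions were tested with diffSpliceDGE (at least 20 reads, line as block), and a call needed an adjusted p under 0.05 and a change of 5 points with 1 sign in all lines. Scripts were tested on simulated data.

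Some results on listed and overlapping genes are not reported here. The members and lists were chosen with earlier results of these data known. All 8 members are named. Of each list, genes that passed across lines and otherwise the most abundant could be named. As chosen after their values were seen, LEF1, CCND1, SNAI1, SNAI3, ZEB2, CTBP1, the marker genes and the overlapping genes were added. Likeness names the 3 genes of highest Pearson correlation of log2 CPM (prior count 2). DESeq2 1.42.0, limma 3.58.1, other scaling, no filter, a replicate block and leaving out libraries or lines were tried as alternatives.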

Additional observations from a re-analysis of the deposited data

Results flagged for a closer look

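For 7 of the 8 genes the response to mutant U1 differed between the lines, by edgeR's F-test of the difference with Benjamini-Hochberg adjustment over all genes tested, as it did for 32% of those genes. The adjusted p was 7.2e-22 for CTNND1, with log2 fold changes of -0.10 (JVM3), 0.13 (HG3) and 1.68 (MEC1). It was 4.98e-06 for CTNNA1 (0.12, -0.23 and 0.00 in that order) and 5.9e-05 for CTNNBL1 (0.07, -0.02 and 0.37). For CDH1 it was 2.74e-05, with the same direction in each line and different sizes (-0.63, -1.34 and -1.56). For JUP it was 0.00147 (0.22, -0.33 and -0.44). The differences of CTNNB1 (adjusted p = 0.0104 by edgeR; 0.11, -0.06 and -0.02) and ARVCF (adjusted p = 0.0273; 0.20, 0.74 and 0.77) were lost in 2 and 7 of 17 alternatives. These tests rest on the spread between technical replicates.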

How the results depend on the processing

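Across lines 1 member was called, and 2 were called (ARVCF added) with no filter on low counts, with the 12 libraries unsummed, and with the unsummed libraries and a replicate block; 0 were called without the line HG3 and 0 without the line MEC1. Over all genes, 389 rose and 395 fell across lines; with DESeq2 it was 546 and 787, with no filter 1065 and 1475, unsummed 3182 and 3459, unsummed with the block 2456 and 2628, and without JVM3, HG3 or MEC1 227 and 153, 148 and 172, and 174 and 167. Within lines 13 calls became 9 to 14 over 17 alternatives, and 7 differences between lines became 5 to 7. Junction calls stayed at 0 under the 6 alternatives that could be run; with a minimum of 50 reads no member junction could be tested. Deviations of libraries with the same replicate number correlated weakly (0.017, 0.101 and 0.187 in JVM3, HG3 and MEC1), and the main fit did not pair them. The replicate block gave 14 member calls within lines, with CTNND1 in JVM3 added (-0.10, adjusted p = 0.0269 by edgeR). Over all genes it called more in each line. With it 2765, 4365 and 4251 rose in JVM3, HG3 and MEC1, against 2214, 3971 and 3826 in the main fit. It had 3008, 4506 and 4352 that fell, against 2553, 4174 and 3950. Leaving out a line for LRRTM2, PTPRM, WNT2B and ESRP2 was chosen after seeing the data.

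Signs turned where the main value was near 0 or counts were few, and the cause was not tested. CTNNB1 across lines gave -0.0126 with no filter, -0.0566 without the line JVM3, and -0.0105 to 0.0153 with 1 replicate left out. CTNNA1 across lines gave 0.0577 without HG3, and JUP 0.0119 without MEC1. CTNNA1 in MEC1 gave 0.0034 with no filter, 5e-04 with the replicate block and -0.0357 to 0.0415 with 1 replicate left out. With 1 replicate left out, CTNNBL1 in HG3 ran from -0.0611 to 0.003, and CDH2 from -0.4174 to 0.4653 in JVM3 and from -2.2801 to 2.1844 in MEC1. The CDH2 values are fitted on few counts and are not read as folds. Over all alternatives JUP ran from -0.7282 to -0.1786 in MEC1 and from -0.5177 to -0.1711 in HG3. Depth limits CDH2, ARVCF junctions and CTNND1 junctions in wild-type MEC1.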

Other observations

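Across lines, a neighbour of the members had a larger log2 fold change than any of them. In MEC1, CTNND1 (1.68) and CDH1 (-1.56) changed more than this neighbour. LRRTM2, a synaptic adhesion gene that lies inside CTNNA1 on the opposite strand, rose with mutant U1 (log2 fold change 2.68, SE 0.81 over 3 lines, adjusted p = 0.0318 by edgeR). Its replicates had 3 and 7 counts in wild-type and 30 and 28 in mutant JVM3. In HG3 they had 8 and 4 against 85 and 98, and in MEC1 5 and 6 against 17 and 10. No mutant library overlapped a wild-type library of its line, although MEC1 alone did not pass (1.13, adjusted p = 0.074 by edgeR). The call was lost without JVM3 (adjusted p = 0.117) or without HG3 (0.0818). CTNNA1 itself gave 0.12, -0.23 and 0.00 in the same lines. LRRTM1, which lies inside another α-catenin gene, had 0 counts in all 12 libraries. ULK4, which overlaps CTNNB1 on the opposite strand, rose in JVM3 (0.34, adjusted p = 0.00231 by edgeR) and HG3 (0.69, adjusted p = 1.81e-07) and did not pass in MEC1 (0.18, adjusted p = 0.116).

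The genes whose levels followed each member most closely over the 12 libraries are given as descriptions, since libraries of a line share that line. For CTNND1 they were SERTAD2 (Pearson's r = 0.997), ACHE (0.994) and LHFPL3-AS2 (0.994), and 399 genes exceeded 0.95. SERTAD2 read 26.8 and 38.9 CPM in wild-type and mutant MEC1 and 65.9 to 69.8 in the other groups. For CDH1 they were CHROMR (0.991), TNKS (0.989) and EDEM2 (0.986), with 50 genes over 0.95, and EDEM2 went from 43.1 to 20.8 CPM in MEC1. For ARVCF they included PVT1 (0.993) and PIGG (0.993), for JUP IL1A (0.998), LDHB (0.997) and ZBTB32 (0.996), and for CTNNA1 KIF3B (0.997), TAP1 (0.997) and ACTN1 (0.997). For CTNNB1 they were S100A6 (0.994), ANXA5 (0.993) and DDIT3 (0.993). Genes over 0.95 numbered 174 for ARVCF, 840 for JUP, 800 for CTNNA1 and 358 for CTNNB1. CTNNBL1, the most even member, had only 1 gene over 0.95, LIMK2 (0.951), followed by DLG5 (0.938) and PNPLA6 (0.922).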
